A study of Homo sapiens with 6 samples.

Results

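The TAM receptors are 3 receptor tyrosine kinases, AXL, TYRO3 and MERTK, and they are described here with their ligands GAS6 and PROS1 in a human adrenocortical carcinoma cell line. All probe sets that the platform annotation maps to these 5 genes were taken, which gave 10 of the 54613 probe sets on the array: 2 for AXL, 2 for TYRO3, 3 for MERTK, 2 for GAS6 and 1 for PROS1. AXL was chosen by its measured log2 signals, which had been seen to differ between these arrays, so its values are given as a description with no test. The other 4 genes were taken for their family membership.

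The cells were H295R/TR SF-1, a subclone of H295R that makes more SF-1, the nuclear receptor encoded by NR5A1, when doxycycline is added. Total RNA of 3 cultures kept in basal conditions for 72 h (basal 1, 2 and 3) and of 3 cultures given doxycycline at 1 µg/mL for 72 h (Dox 1, 2 and 3) was hybridized, an array each, to 3′ expression arrays, to ask which transcripts respond to a higher dosage of SF-1. Both groups were the same subclone, which the study kept in blasticidin and zeocin, and cells without the SF-1 construct given doxycycline were not analysed here, so effects of the drug and of SF-1 cannot be told apart. The numbers name arrays by order of deposition and pair nothing, and the study calls them biological replicates. Basal 1 and Dox 1 share a style of sample title that the other arrays do not have. Their treatment labels read only control and SF-1 overexpression. Those of the other arrays state the 72 h and, for Dox 2 and Dox 3, the dose of doxycycline.

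The TAM receptors sit in the plasma membrane and signal when a ligand joins them. GAS6 and PROS1 (protein S, also an anticoagulant of blood plasma) carry a Gla domain, a stretch whose glutamates are carboxylated with vitamin K, and this domain binds phosphatidylserine exposed on dying cells or platelets while the other end of the ligand binds the receptor. GAS6 can engage all the TAM receptors and PROS1 engages TYRO3 and MERTK. The receptors are known for the engulfment of dying cells and for damping inflammation, and AXL is also known for its high level in many invasive or drug-resistant tumours.

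The labels did not separate the arrays, and every result below rests on that. Basal 1 and Dox 1 were nearly identical (the SD of their difference over all probe sets was 0.134 on the log2 scale, and 0 probe sets differed by over 2-fold), and so were basal 3 and Dox 2 (0.149 and 0 probe sets). Pairs of arrays of 1 label differed with an SD of 0.258 to 0.452 and had 525 to 2197 probe sets over 2-fold. The values of basal 2 and Dox 3 were spread less widely (SD over all probe sets 2.36 and 2.37) than those of the other 4 arrays (2.43 to 2.44), while the medians of the arrays lay between 5.56 and 5.60. NR5A1 measured 5.84, 5.92 and 6.30 in basal 1, 2 and 3 and 5.55, 6.21 and 6.41 in Dox 1, 2 and 3, so the groups overlapped in the induced gene itself. Whether its probe set detects the induced transcript is not given in the sources used here. The study reports SF-1 overexpression after doxycycline with an immunoblot of the protein, which these RNA values do not measure. Whether labels were exchanged was not tested, and if they were, a Dox minus basal value would not mean what its name says. The labels were kept throughout. Differences of the family are therefore given in 3 ways, as Dox minus basal on the log2 scale: for all 6 arrays by label, without basal 3 and Dox 1, and without basal 1 and Dox 2, the other members of the near-identical pairs (no block). In the set without basal 3 and Dox 1, membership of the narrow or the wide arrays entered the model as a block, which leaves 1 residual degree of freedom. It leaves out the basal array with the highest NR5A1 and the Dox array with the lowest, which raises the NR5A1 difference. That choice was made from these same data, so its p-values are not independent evidence.

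Of the adrenocortical markers, STAR (10.73 to 11.59), CYP11A1 (10.48 to 11.90) and CYP17A1 (7.83 to 9.56), genes of steroid synthesis, lay above the array median in all 6 arrays, whereas CYP11B1 (4.31 to 4.70) and INHA (5.09 to 5.29) lay below it in all 6. Of 11 measured markers of blood, endothelial and stromal cells, 7 lay below the median in all arrays, among them PTPRC (3.04 to 3.41) and CDH5 (3.62 to 3.80). PECAM1 and COL1A1 lay above it in all arrays.

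AXL is a gene of chromosome 19 on the plus strand. RefSeq lists 2 start sites for it, and the 250 bases before each are shown (GRCh38.p14). The experiment was meant to raise a transcription factor, and AXL was the family member whose level differed most. A link between SF-1 and AXL was not tested. The capitals mark the matches, on either strand, to 4 motifs: AAGGTCA, the core motif that SF-1 binds, GGGCGG, a GC box bound by SP1, GGAATG, bound by TEAD factors, and TGACTCA, bound by AP-1.

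AXL start 1, chr19:41218973-41219222, plus strand: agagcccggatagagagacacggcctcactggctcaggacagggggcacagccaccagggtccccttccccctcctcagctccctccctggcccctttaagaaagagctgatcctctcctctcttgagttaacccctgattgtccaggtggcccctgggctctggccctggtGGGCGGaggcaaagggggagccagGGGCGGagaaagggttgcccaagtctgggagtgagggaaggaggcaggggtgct

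AXL start 2, chr19:41226505-41226754, plus strand: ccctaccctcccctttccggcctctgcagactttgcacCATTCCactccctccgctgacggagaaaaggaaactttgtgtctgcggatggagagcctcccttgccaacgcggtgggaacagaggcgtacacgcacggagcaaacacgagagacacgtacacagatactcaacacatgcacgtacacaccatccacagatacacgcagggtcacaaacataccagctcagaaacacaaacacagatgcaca

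The window before start 1 held 2 GC boxes and that before start 2 held a single TEAD match, read on the minus strand, and the matches do not overlap. In 35116 windows of the same length before RefSeq starts, 42.6% held the GC box, 11.9% the TEAD motif, 4.2% the AP-1 motif and 3.44% the SF-1 motif. The 2 TYRO3 windows held 3 and 0 GC boxes, and the MERTK, GAS6 and PROS1 windows held 4, 3 and 2. No window of the 5 genes held the SF-1 motif or the AP-1 letters, which says only that these letters are not in these 250 bases.

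The main AXL probe set, 202686_s_at, fell into high and low arrays that crossed the labels. Its log2 signal was 4.71 in basal 1, 5.44 in basal 2 and 8.37 in basal 3, and 5.28 in Dox 1, 8.25 in Dox 2 and 8.11 in Dox 3. The low arrays were basal 1, basal 2 and Dox 1, all below the median of their array, and the high arrays were basal 3, Dox 2 and Dox 3. The highest value of all was that of a basal array. The SD over the 6 arrays was 1.72, against a median of 0.168 over all probe sets, and only 9 of the 54613 probe sets had a larger one. In RNA of whole cultures, fewer cells with a transcript and less transcript per cell cannot be told apart.

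By label, this AXL probe set had a mean of 6.17 ± 1.94 in basal and 7.21 ± 1.68 in Dox (SD, n = 3 each), a difference of 1.04 ± 1.12 (SE) that was smaller than the spread within either group. Leaving out single arrays moved it from 0.31 (without basal 1) to 2.14 (without basal 3). The SE of a difference, here and below, is that of the limma fit, which draws on the variance of all probe sets. For this AXL probe set it can understate the scatter of its own arrays. Without basal 3 and Dox 1, the means were 5.07 in basal and 8.18 in Dox, a difference of 3.11 ± 0.18 or 8.61-fold, and within it Dox 2 exceeded basal 1 by 3.54 and Dox 3 exceeded basal 2 by 2.67. That size follows from which arrays were kept, and 3.54 and 2.67 lie further apart than the SE of 0.18 shows. With the other members of the pairs, without basal 1 and Dox 2, the difference was -0.21 ± 1.24. Within the near-identical pairs, Dox 1 exceeded basal 1 by 0.57 and Dox 2 minus basal 3 was -0.12.

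The other AXL probe set, 202685_s_at, divided the arrays in the same way over a much smaller range. It measured 5.14, 5.08 and 5.35 in basal 1, 2 and 3 and 4.95, 5.37 and 5.67 in Dox 1, 2 and 3, and lay below the array median in 5 of the 6 arrays. The difference by label was 0.14 ± 0.19, and without basal 3 and Dox 1 it was 0.41 ± 0.15. Basal 3, Dox 2 and Dox 3 were again the high arrays and basal 1, basal 2 and Dox 1 the low ones, with a different order within each set and a range of 0.721 in all. Levels of different probe sets cannot be set against each other, and which stretch of the transcript each AXL probe set covers is not given in the sources used here.

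**Figure D1:**
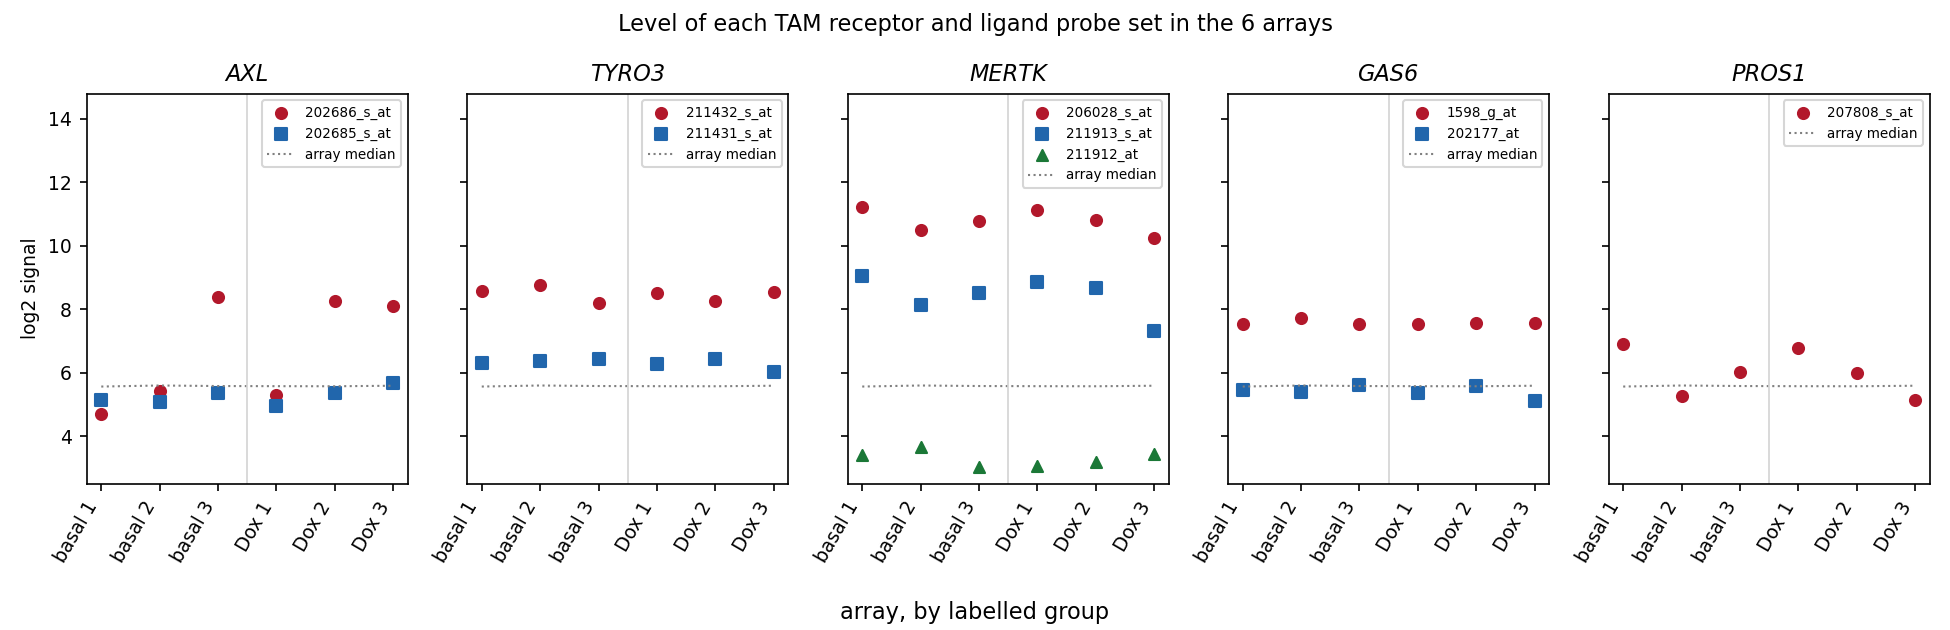
Log2 signal (y axis) of the 10 probe sets of AXL, TYRO3, MERTK, GAS6 and PROS1 in each of the 6 arrays (x axis, by labelled group), with a point for each array and the array median as a dotted line. The AXL probe set 202686_s_at lies at 4.71 to 5.44 in basal 1, basal 2 and Dox 1 and at 8.11 to 8.37 in basal 3, Dox 2 and Dox 3, whereas the GAS6 probe set 1598_g_at spans 7.54 to 7.71.

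TYRO3 and MERTK, the other receptors, did not share the AXL pattern. TYRO3 in its brighter probe set, 211432_s_at, measured 8.58, 8.77 and 8.21 in basal 1, 2 and 3 and 8.50, 8.24 and 8.54 in Dox 1, 2 and 3. The high AXL arrays basal 3 and Dox 2 were the lowest for TYRO3, and the groups overlapped. Its difference by label was -0.09 ± 0.18 (limma adjusted p = 1), and without basal 3 and Dox 1 it was -0.28 ± 0.12 (limma adjusted p = 0.293). The dimmer TYRO3 probe set, 211431_s_at, ranged from 6.03 to 6.42, with differences of -0.12 ± 0.14 and -0.12 ± 0.15. Both TYRO3 probe sets are of a type that can match several transcripts, and TYRO3 has a near-identical pseudogene copy, so its values may hold signal of both.

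MERTK, the receptor best known on phagocytes, was read by 3 probe sets at very different signals. The brightest, 206028_s_at, measured 11.22, 10.50 and 10.77 in basal 1, 2 and 3 and 11.12, 10.82 and 10.26 in Dox 1, 2 and 3, in the upper range of every array. Its lowest values were those of basal 2 and Dox 3, the arrays of narrow spread, with a mean of 10.38 there and 10.99 in the 4 others. Its difference by label was -0.10 ± 0.27 (limma adjusted p = 1), and without basal 3 and Dox 1 it was -0.32 ± 0.10 (limma adjusted p = 0.104).

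The MERTK probe set 211913_s_at measured 9.06, 8.12 and 8.52 in basal 1, 2 and 3 and 8.86, 8.68 and 7.31 in Dox 1, 2 and 3. Dox 3 was lowest by a wide margin and basal 2 came next, so here too the arrays of narrow spread were the low ones (mean 7.71 against 8.78). By label the difference was -0.28 ± 0.44 (limma adjusted p = 1). Without basal 3 and Dox 1 it was -0.59 ± 0.14, or 1.51-fold lower in Dox (limma adjusted p = 0.0208), with Dox 2 minus basal 1 at -0.37 and Dox 3 minus basal 2 at -0.82. That call was lost without the block (limma adjusted p = 1), and Dox 1 minus basal 3, the arrays left out, went the other way at 0.34. Without basal 1 and Dox 2, the difference of this probe set was -0.24 ± 0.54, in the direction of the call. The third MERTK probe set, 211912_at, lay between 3.03 and 3.65, below the median of every array, and differed by -0.13 ± 0.18 by label.

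GAS6, the ligand of all the TAM receptors, had the steadiest probe set of the family. Its brighter probe set, 1598_g_at, measured 7.54, 7.71 and 7.54 in basal 1, 2 and 3 and 7.55, 7.57 and 7.57 in Dox 1, 2 and 3. Its SD over the 6 arrays, 0.0670, was larger than that of only 5.84% of all probe sets. The difference was -0.04 ± 0.12 by label and -0.06 ± 0.13 without basal 3 and Dox 1 (limma adjusted p = 1 and 0.923). The other GAS6 probe set, 202177_at, measured 5.12 to 5.61 and was below the array median in 4 arrays, with a difference by label of -0.14 ± 0.14. Its SD of 0.178 was above the median of 0.168 over all probe sets.

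PROS1, the other ligand, varied widely but by array and not by label. It measured 6.89, 5.28 and 6.03 in basal 1, 2 and 3 and 6.79, 5.98 and 5.14 in Dox 1, 2 and 3. The near-identical arrays matched each other (basal 1 with Dox 1, basal 3 with Dox 2), and basal 2 and Dox 3 were lowest, with a mean of 5.21 against 6.42 in the arrays of wide spread. The part of array spread in the MERTK and PROS1 values was not tested apart from the block. The PROS1 difference was -0.10 ± 0.51 by label (limma adjusted p = 1), -0.53 ± 0.17 without basal 3 and Dox 1 (limma adjusted p = 0.132) and 0.31 ± 0.58 without basal 1 and Dox 2. PROS1 has a close pseudogene copy, so its single probe set may hold signal of both.

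Over the 10 probe sets, the labelled groups overlapped in all 10, where 3.81% of all probe sets had groups that did not overlap. In the comparison by label, 0 of the 8 probe sets of TYRO3, MERTK, GAS6 and PROS1 were called at an adjusted p of 0.05, against a background of 0% (0 of 54613 by limma, with 373 at an unadjusted p under 0.05), and the lowest unadjusted p of the 8 was 0.363. Without basal 3 and Dox 1, 0 of the 8 were called higher and 1 was called lower, the MERTK probe set 211913_s_at, where 2.07% of all probe sets were called higher and 2.09% lower. Without basal 1 and Dox 2, 0 of all probe sets were called (135 at an unadjusted p under 0.05). All 8 had a difference below 0 by label and without basal 3 and Dox 1, as had 50.6% and 50.8% of all probe sets. These 8 share arrays and genes and are not independent.

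**Figure D2:**
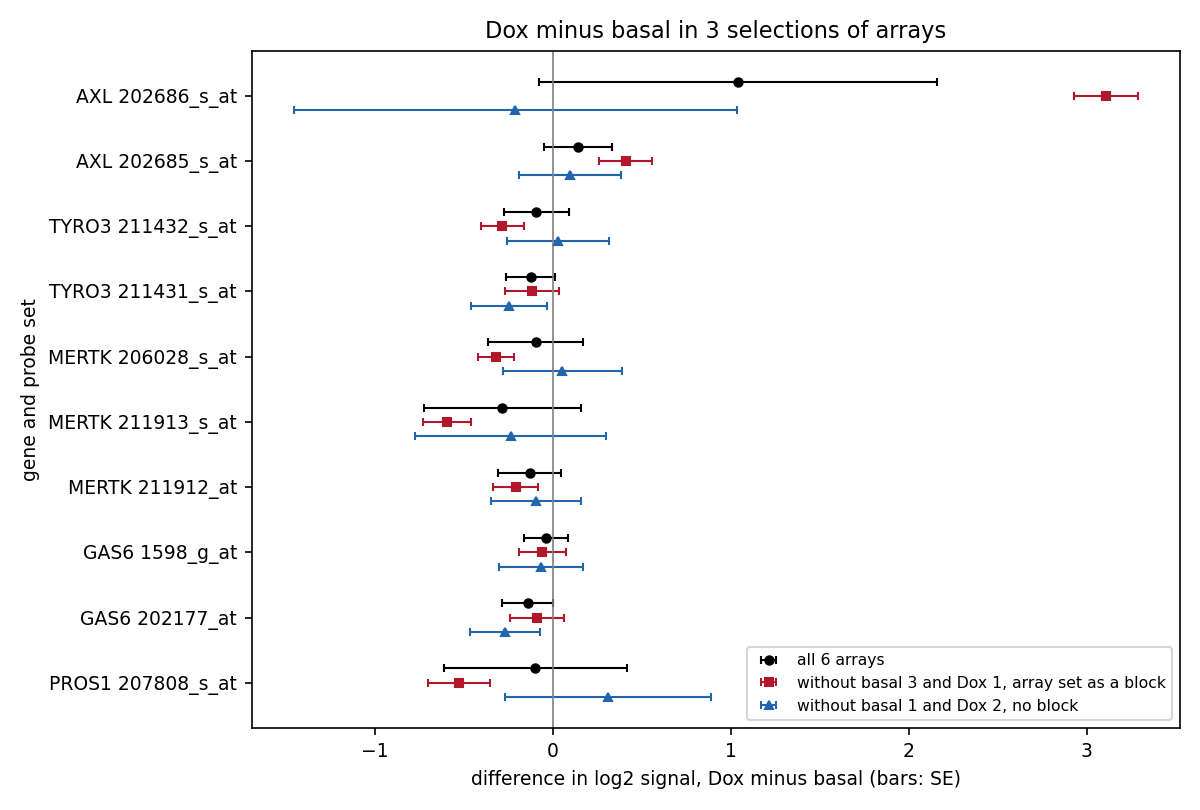
Difference in log2 signal, Dox minus basal (x axis, with bars for the SE of the limma fit), of the 10 probe sets (y axis) for all 6 arrays (black), without basal 3 and Dox 1 with the block (red) and without basal 1 and Dox 2 (blue). The AXL probe set 202686_s_at moves from 1.04 to 3.11 and to -0.21 with the choice of arrays, while those of the other 4 genes stay between -0.59 and 0.31.

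The genes around the family were followed in the comparison without basal 3 and Dox 1, with each gene read by its brightest probe set, where 3.16% of genes were called higher and 3.27% lower. By label, and without basal 1 and Dox 2, 0 members of any list below were called by limma, and the values of the called genes in these other selections follow each list. The median difference of all probe sets was -0.0033 without basal 3 and Dox 1, and each list's median is given beside its count. Of the 9 measured adrenocortical markers, 0 were called higher and 2 lower, HSD3B2 (-1.40 ± 0.18) and STAR (-0.54 ± 0.09), with a median of -0.28, and their part in the results below was not tested. By label HSD3B2 differed by -0.48 ± 0.66 and STAR by -0.17 ± 0.24, and without basal 1 and Dox 2 by -0.23 ± 0.90 and 0.01 ± 0.32. Of the 11 blood, endothelial and stromal markers, 0 were called, with a median of 0.06.

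Of 7 genes that make Gla proteins mature, 0 were called higher and 1 lower, with a median difference of -0.11. The one called was NQO1, a quinone reductase that can reduce vitamin K, at -0.76 ± 0.10 (limma adjusted p = 0.00046). GGCX, the carboxylase itself, differed by -0.32 ± 0.12 (limma adjusted p = 0.22), but another of its 5 probe sets gave 0.05. Of 11 measured other Gla proteins, PRRG1, a membrane Gla protein, was called higher (0.67 ± 0.14, limma adjusted p = 0.0117), 0 were called lower, the median was 0.03 and 6 lay below the median in all arrays. By label NQO1 differed by -0.30 ± 0.30 and PRRG1 by 0.42 ± 0.24, and without basal 1 and Dox 2 by -0.14 ± 0.42 and 0.30 ± 0.33.

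Of 9 measured genes of receptor shedding, the cutting of AXL and MERTK from the cell surface, 0 were called higher and 1 lower, with a median of -0.16. TIMP3, a tissue inhibitor of metalloproteinases, measured 11.96, 11.68 and 11.45 in basal 1, 2 and 3 and 11.98, 11.54 and 11.28 in Dox 1, 2 and 3. Its difference was -0.41 ± 0.09 (limma adjusted p = 0.0134), against -0.10 ± 0.21 by label and 0.07 ± 0.28 without basal 1 and Dox 2. ADAM10, a sheddase, differed by 0.19 ± 0.09 (limma adjusted p = 0.385), but another of its 3 probe sets gave -0.15.

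Among 21 measured adaptors and kinases downstream of TAM receptors, 2 were called higher and 0 lower, with a median of 0.01. PIK3R1, the regulatory subunit of PI 3-kinase, differed by 0.98 ± 0.14 (limma adjusted p = 0.000521), with its 3 probe sets between 0.53 and 0.98. TNS2, a tensin that binds AXL, differed by 0.58 ± 0.14 (limma adjusted p = 0.0285). STAT3, a transcription factor downstream of many receptors, differed by -0.45 ± 0.12 (limma adjusted p = 0.0561), but another of its 4 probe sets gave 0.21. By label PIK3R1 differed by 0.41 ± 0.55 and TNS2 by 0.29 ± 0.19, and without basal 1 and Dox 2 by 0.25 ± 0.73 and 0.16 ± 0.28.

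Of 18 engulfment genes, 1 was called higher and 2 lower, with a median of -0.0018. ITGB5, an integrin subunit that acts beside MERTK, differed by 0.48 ± 0.12 (limma adjusted p = 0.0338). CD36, a scavenger receptor, differed by -0.74 ± 0.10 (limma adjusted p = 0.000531) and GULP1, an engulfment adaptor, by -0.51 ± 0.11 (limma adjusted p = 0.0172), though other probe sets of both genes reached 0.08 and 0.04. By label ITGB5 differed by 0.16 ± 0.24, CD36 by -0.27 ± 0.35 and GULP1 by -0.19 ± 0.22. Without basal 1 and Dox 2 these were -0.01 ± 0.34, -0.07 ± 0.46 and -0.08 ± 0.34. Of 9 measured genes that move phosphatidylserine across the membrane, 0 were called, with 0.52 ± 0.14 for the flippase gene ATP8A1 (limma adjusted p = 0.0614) and a median of 0.07. Another ATP8A1 probe set gave -0.12.

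Of 16 transcription factors tied to AXL, 1 was called higher and 0 lower, with a median of 0.04. EPAS1, which encodes the hypoxia factor HIF-2 alpha, measured 7.67, 7.16 and 10.14 in basal 1, 2 and 3 and 7.65, 10.06 and 9.94 in Dox 1, 2 and 3. Its high arrays, basal 3, Dox 2 and Dox 3, were those of AXL. The comparison that called it sets low AXL arrays against high ones, and each array left out is nearly identical to a kept one. A strongly called gene will therefore tend to share or mirror the AXL arrays, so this likeness follows from the selection. Its difference was 2.59 ± 0.13 (limma adjusted p = 3.6e-08), but another of its 3 probe sets gave -0.10. By label EPAS1 differed by 0.90 ± 0.92, and without basal 1 and Dox 2 by 0.15 ± 1.16. TEAD4, a partner of YAP, differed by 0.43 ± 0.13 (limma adjusted p = 0.0868).

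Of 52 other receptor tyrosine kinases measured, 2 were called higher and 4 lower, with a median of 0.01, and 18 lay below the median in all arrays. KIT, the stem cell factor receptor, measured 6.41, 6.15 and 9.24 in basal 1, 2 and 3 and 6.44, 9.13 and 8.73 in Dox 1, 2 and 3, a difference of 2.65 ± 0.13 (limma adjusted p = 3.6e-08). FGFR4, a receptor of fibroblast growth factors, measured 7.41, 7.99 and 9.34 in the basal arrays and 7.48, 9.29 and 9.96 in the Dox arrays, a difference of 1.93 ± 0.12 (limma adjusted p = 3.39e-07). Both had the high arrays of AXL. As for EPAS1, this likeness, and the mirrored pattern of ROR1 that comes next, follow from the comparison that called them. ROR1, a receptor of WNT5A, had the opposite arrays high, at 6.96, 6.83 and 5.54 in the basal and 6.77, 5.59 and 5.43 in the Dox arrays, a difference of -1.39 ± 0.14 (limma adjusted p = 2.43e-05). Other probe sets of FGFR4 and ROR1 gave as little as 0.0066 and -0.18. The other genes called lower were ROR2 (-0.81 ± 0.14), DDR2 (-0.57 ± 0.11) and EPHB4 (-0.52 ± 0.11). By label KIT differed by 0.83 ± 0.98, FGFR4 by 0.67 ± 0.71 and ROR1 by -0.52 ± 0.48, and the other 3 by -0.22 (ROR2), -0.22 (DDR2) and -0.14 (EPHB4). Without basal 1 and Dox 2 the differences were -0.11 for KIT, 0.06 for FGFR4, -0.09 for ROR1, 0.18 for ROR2, -0.01 for DDR2 and 0.09 for EPHB4.

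The range over the 6 arrays needs no label and places AXL among its class. AXL spanned 3.66 on the log2 scale, 0 of the 52 others spanned more, and the widest of them was KIT at 3.09. The median range of the others was 0.458, with 8 over 1. MERTK spanned 0.966 and TYRO3 0.564 in their brightest probe sets. The place of AXL rests on its brightest probe set, since its other probe set spanned 0.72. MERTK probe set 211913_s_at spanned 1.75. Since AXL was chosen for its spread, its place is a description.

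**Figure D3:**
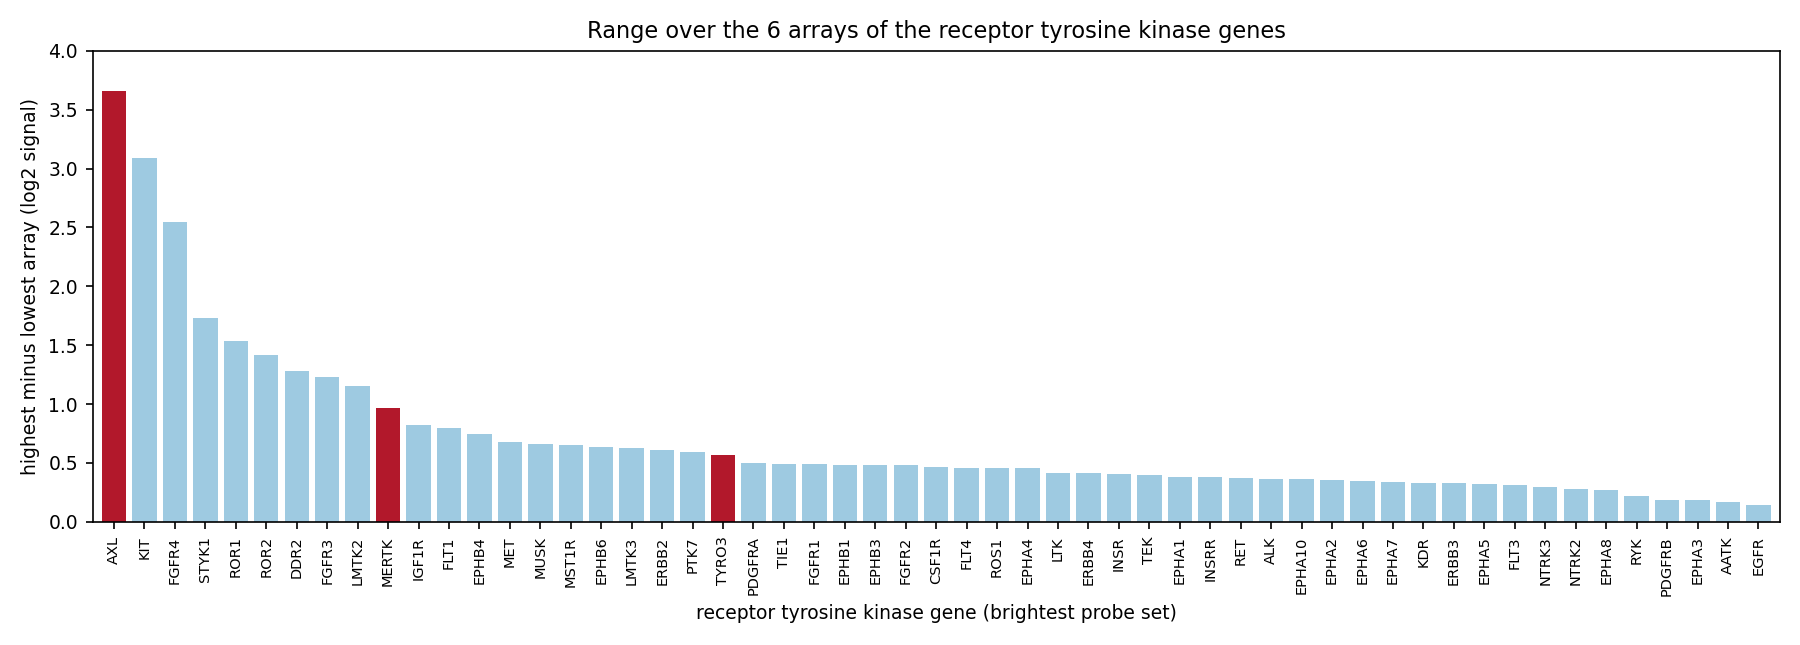
Highest minus lowest array in log2 signal (y axis, from 0) for the brightest probe set of AXL, TYRO3 and MERTK (red) and of 52 other receptor tyrosine kinases (blue), in falling order along the x axis. AXL spans 3.66, KIT 3.09 and MERTK 0.966.

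The 6 genes nearest to AXL in profile were not receptor tyrosine kinases. Likeness was the root mean square difference between log2 profiles centred on their mean over the 6 arrays, computed for 19774 genes, where a smaller value is a closer profile. The nearest were BEAN1 (0.158), which encodes a membrane protein that binds the ubiquitin ligase NEDD4, ELOVL3 (0.246), an elongase of fatty acids, and GRIK1 (0.274), a kainate receptor subunit. Next came TGM2 (0.279), tissue transglutaminase, CCM2L (0.325) and INSM1 (0.348), a neuroendocrine transcription factor, and then KIT (0.358). The median over all genes was 1.58, close to the 1.57 of the AXL profile against a flat line. TYRO3 (1.71), MERTK (1.77), GAS6 (1.58) and PROS1 (1.99) were no closer to AXL than the median gene.

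BEAN1 measured 4.56, 4.97 and 8.20 in basal 1, 2 and 3 and 5.20, 8.32 and 7.99 in Dox 1, 2 and 3, and ELOVL3 measured 7.64, 7.73 and 10.55 in the basal and 7.62, 10.58 and 10.64 in the Dox arrays. Both were high in basal 3, Dox 2 and Dox 3, as AXL was. By label they differed by 1.25 ± 1.15 and 0.98 ± 1.04 (limma adjusted p = 1 for each). These genes were chosen for their likeness to AXL, so their high arrays and their spread within the labelled groups follow from that choice.

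**Figure D4:**
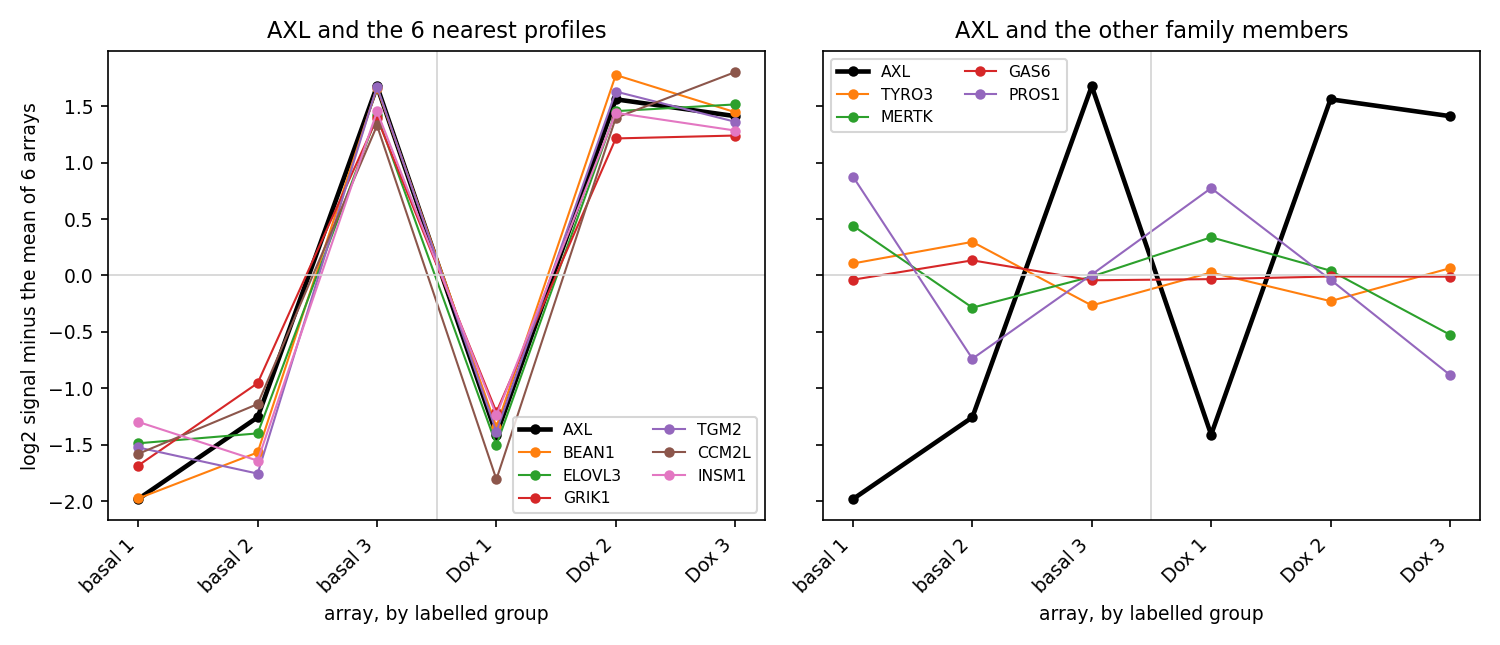
Log2 signal minus the mean of the 6 arrays (y axis) in each array (x axis) for AXL and its 6 nearest genes (left) and for AXL and the other family genes (right), each by its brightest probe set, with lines that only guide the eye. The 7 profiles on the left are low in basal 1, basal 2 and Dox 1 and high in basal 3, Dox 2 and Dox 3, and the other family genes on the right do not follow them.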

How the data were processed

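The deposited table holds 1 log2 value per probe set and array, made by the authors, whose processing notes name GCRMA without a version. GCRMA corrects background by probe sequence, and values of dim probe sets lie near that background, so their differences are uncertain. The files give no detection calls, and whether the 6 arrays were normalized together is not given in the sources used here. The values were used as deposited. Their number limits the precision. Probe sets were named by the platform annotation (41091 with 1 gene symbol, 1801 with several, 11721 with none).

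Groups came from the labels. All 54613 probe sets were fitted with limma 3.58.1 (lmFit, eBayes with a mean-variance trend) in R 4.3.3, with two-sided tests and Benjamini-Hochberg adjustment over all of them at 0.05. The fit was tested on simulated data. A gene outside the family was read by its brightest probe set over all arrays. Named genes were all probe sets of the 5 genes, the 6 nearest profiles, NR5A1 and up to 4 members of each of 11 lists with the smallest p without basal 3 and Dox 1, and all called kinases. Members and lists were chosen with earlier results of these data known. Alternatives changed normalization, filter, variance model, block and arrays. Promoter windows were from RefSeq. Figures were drawn with matplotlib 3.10.9.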

Additional observations from a re-analysis of the deposited data

How the results depend on the processing

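The comparison by label called 0 probe sets under all alternatives run (limma, with 31 to 1227 at an unadjusted p under 0.05), and 0 passed the cutoffs that the study names (2-fold and an unadjusted p under 0.05) by limma or an equal-variance test. The study, which names no test, reports genes both raised and lowered by SF-1 overexpression at these cutoffs. Why the results differ was not tested. Leaving out single arrays gave, for the brightest probe sets, -0.2477 to 0.0342 for TYRO3, -0.2897 to 0.1421 for MERTK, -0.0656 to 0.0227 for GAS6 and -0.5085 to 0.3195 for PROS1. It gave -0.5717 to 0.2069 for MERTK probe set 211913_s_at and -0.2951 to 0.016 for MERTK probe set 211912_at. The sign of these differences is therefore not settled. TYRO3 probe set 211431_s_at (-0.2145 to -0.0202) and GAS6 probe set 202177_at (-0.2528 to -0.0223) stayed below 0. Without basal 1 and Dox 2, the brightest probe sets of TYRO3 and MERTK turned to 0.0293 and 0.0545, and PROS1 to 0.3114. The other TYRO3 probe set stayed below 0 at -0.2444, and the other MERTK probe sets at -0.2363 and -0.0931. The GAS6 probe sets stayed at -0.0672 and -0.2672. These values were the same with or without the array set as a block (a setting chosen after seeing the data).

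Without basal 3 and Dox 1, 2269 probe sets were called, 1764 to 2741 under another variance model, normalization or filter on low values, and 1383 with 1 probe set per gene, where fewer were tested. Without the block, 0 were called (1580 at an unadjusted p under 0.05). With the style of the sample titles as the block, basal 1 was the only kept array of its style. That fit therefore set basal 2 alone against Dox 2 and Dox 3. It turned the brightest MERTK probe set to 0.0443, PROS1 to 0.2783, CALU to 0.0940, VKORC1L1 to 0.0838 and CYP11A1 to -0.2599. The other MERTK probe sets stayed below 0, at -0.1256 and -0.3371. TIMP3, GULP1, ITGB5 and EPHB4 were not called without the mean-variance trend (adjusted p 0.135, 0.0617, 0.0674 and 0.0525). PROS1 was called with the filter on low values (adjusted p = 0.0364). No paired analysis was possible because the labels of the 2 groups share no replicate numbers, and the numbers used here are only the order of deposition.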
